A study of Rangifer tarandus with 8 samples.

Results

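The genes described here are the 1480 records that the study's cattle gene annotation types as long noncoding RNA (lncRNA), out of 27607 gene records in all, of which 21861 are protein coding. All records of that type were taken, and each was classed by its nearest coding neighbours from position and strand alone. A lncRNA gene was called divergent when it lay on the opposite strand to a coding gene, did not overlap it, and pointed away from it with the starts of both genes at most 1 kb apart. It was called antisense overlapping or sense overlapping when it shared at least 1 base with a coding gene record on the opposite or the same strand, and intergenic otherwise. The start of a gene is the outer 5' end of its record.

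The series itself profiled open chromatin by single-cell ATAC-seq in adult reindeer (Rangifer tarandus) skin, in 8 libraries. Velvet, the skin over the growing antler, and back skin were sampled unwounded and 7 days after full-thickness excision, and velvet grafted onto the back was sampled at 6 weeks (2 animals), 3 months and 6 months. The epidermis was taken off before the cells were freed, and 6 of the 7 groups have a single library. The reads were mapped on cattle (Bos taurus), per the series text, and the genes described are therefore cattle records. No library enters any value below, and accessibility was not analysed here.

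A lncRNA is a spliced or unspliced transcript, made like a messenger RNA, for which no protein product is annotated. Many mammalian promoters fire in both directions, and when the upstream-going transcript is stable it is annotated as a divergent lncRNA that shares its promoter region with a coding gene. Such pairs are well known next to developmental regulators, where the lncRNA start and the coding start lie in the same stretch of open chromatin. Other lncRNAs are transcribed across a coding gene from the opposite strand, from inside it, or from their own promoters far from any coding gene.

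Of the 1480 lncRNA genes, 116 (7.84%) were divergent and 1364 (92.2%) were intergenic. None was antisense overlapping and none was sense overlapping: no lncRNA record shared a single base with a protein coding record. Every other type of gene with over 90 records did overlap coding genes. Classed against other coding genes in the same way, 3655 coding genes (16.7%) overlapped one. So did 27.5% of the 393 pseudogenes, 55.8% of the 951 microRNA genes and 53.1% of the 770 small nucleolar RNA (snoRNA) genes. Among lncRNA genes themselves overlap was allowed, with 24 pairs on opposite strands and 4 on the same strand, involving 54 genes. Antisense lncRNAs that in human run across a coding gene, such as those at WT1 and BDNF, thus have no record of this type over that gene here. These are complete counts over 1 annotation, with no sampling error, and genes are not replicates, so no test was made.

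The 116 divergent lncRNA genes belonged to 116 different coding genes, with no gene of either kind in more than 1 pair. Those coding genes were 0.531% of all coding genes. The distance between the starts ran from 4 to 994 bases with a median of 168.5 (quartiles 74.25 and 444.5). For 64 pairs (55.2%) it was at most 200 bases, and for 23 pairs (19.8%) it was over 500. The 599 head-to-head pairs of 2 coding genes, picked by the same limit, had a median of 206 bases (quartiles 108 and 435). A distance of at most 100 bases was found in 33.6% of lncRNA pairs and 23.4% of coding pairs. For at most 200 bases these shares were 55.2% and 49.6%, for at most 300 bases 60.3% and 62.8%, and for over 500 bases 19.8% and 20.4%. A gap of exactly 20 bases between the records held 8 of the lncRNA pairs (6.90%) and 14 of the coding pairs (2.34%). The shares were not taken without these pairs. The lncRNA pair just inside the limit was ENSBTAG00000050405 with the junctophilin gene JPH4, at 994 bases. The pair just outside was ENSBTAG00000050149 with an unnamed coding gene on chromosome 23, at 1002 bases.

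On lists of genes from general knowledge, chosen with earlier results of these data known, 4 coding genes had a divergent lncRNA. They were 1 of 49 genes known for a neighbouring lncRNA and 2 of 128 developmental transcription factor genes. The last was 1 of 44 fibroblast and matrix genes. None came from the 21 AP-1 and early response genes or the 29 inflammatory mediators. Over the 17450 coding genes with a unique symbol the share was 0.648%. FOXD3, a forkhead transcription factor gene of the neural crest and its pigment cell lineage, lay on chromosome 3 from 82243978 to 82245566 on the minus strand. Its lncRNA gene, ENSBTAG00000050481, ran from 82246012 to 82247891 on the plus strand in 2 exons, with 446 bases between the starts. In human, FOXD3 is known for a head-to-head lncRNA, FOXD3-AS1. GATA2, a transcription factor gene of blood stem cells and mast cells, lay on chromosome 22 from 59346928 to 59355012. Its lncRNA, ENSBTAG00000051509, was the longer of the pair at 22.6 kb in 2 exons, from 59323689 to 59346259, and the starts were 669 bases apart. IRX2, an Iroquois homeobox gene, lay on chromosome 20 from 70038568 to 70046818, with the 4-exon lncRNA ENSBTAG00000050065 starting 748 bases away. CCN1, which encodes a matricellular protein of wounds and scars, spanned only 2.93 kb on chromosome 3 from 58488378 to 58491302. Its lncRNA ENSBTAG00000052722 ran the other way for 87.6 kb from a start 240 bases off, and with 5 transcripts it had the most of any divergent lncRNA gene.

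Further pairs at genes of skin, signalling and development were chosen after their values were seen. APOD, an apolipoprotein gene used as a fibroblast marker, lay 72 bases from the start of ENSBTAG00000052232 (chromosome 1, 72057854 to 72061911, 3 exons). WNT11, a Wnt ligand gene, had its 2-exon lncRNA ENSBTAG00000050371 794 bases away on chromosome 15, and SPRY4, an inhibitor gene of receptor tyrosine kinase signalling, had the 6-exon ENSBTAG00000054037 171 bases away on chromosome 7. The latter spanned 157 kb, against 11.6 kb for SPRY4. FOXD2, a forkhead gene on the same chromosome as FOXD3, had ENSBTAG00000051070 at 444 bases, close to the 446 bases at FOXD3. POU3F1, a POU factor gene of Schwann cells and keratinocytes, had a 29.6 kb lncRNA gene, ENSBTAG00000051564, against a single exon of 2.13 kb of its own. PCDH10, a protocadherin gene, had the 5-exon ENSBTAG00000055086 at 56 bases, and IL12A, the alpha subunit gene of interleukin-12, had the 2-exon ENSBTAG00000049210 at 49 bases. Among the other pairs of this kind, NF2 (the merlin tumour suppressor gene) had its lncRNA start at 128 bases, DACH1 (a transcription factor gene) at 175, MARCKS (a protein kinase C substrate gene) at 59, and NFATC4 (a calcium-regulated transcription factor gene) at 640. The map of these pairs also shows DIO3 and SLC3A2, whose lncRNA genes are described with the other observations.

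**Figure D1:**
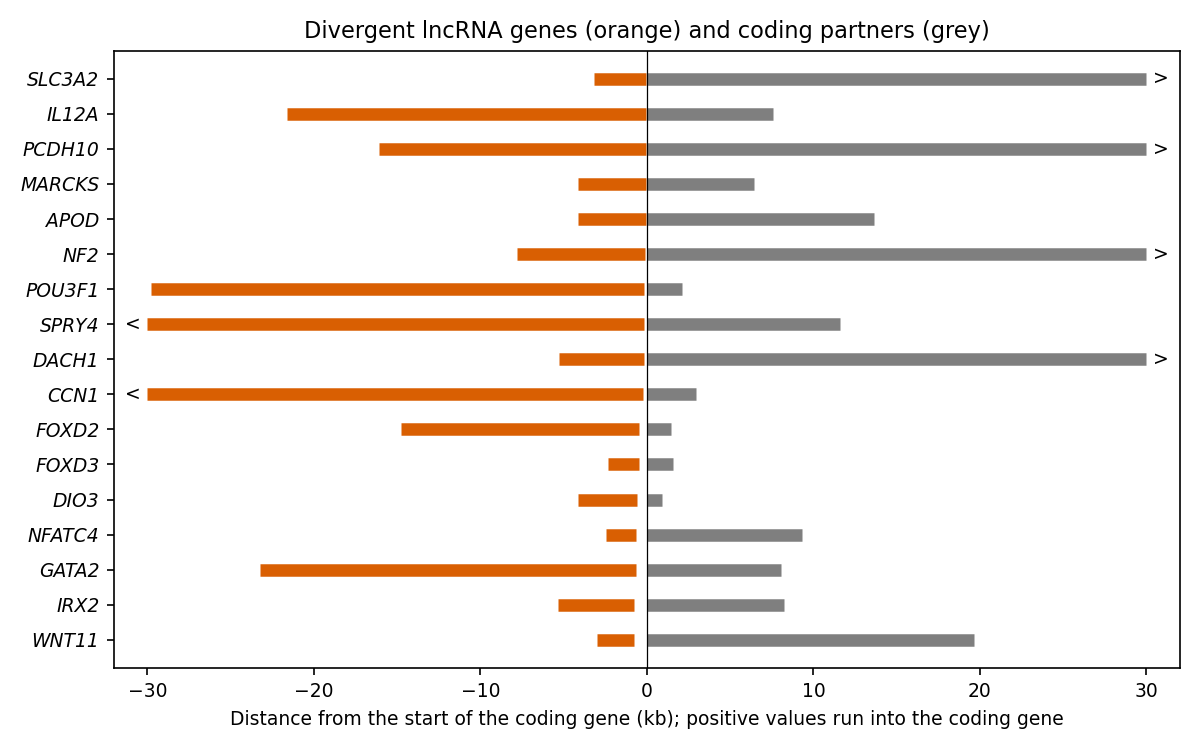
Map of 17 divergent pairs, named by the coding gene and ordered by start distance, in kb from the start of the coding gene; orange bars are lncRNA gene records, grey bars are coding gene records, and < or > marks a record that runs past 30 kb. The lncRNA at CCN1 (87.6 kb) and at SPRY4 (157 kb) run past the frame while their coding partners end within 12 kb; at SLC3A2, PCDH10, NF2 and DACH1 it is the coding gene that does.

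The closest starts were found at a mixed set of genes. ENSBTAG00000049765 began 4 bases from LMBR1, a gene whose intron holds a well-known limb enhancer, and ENSBTAG00000054089 began 5 bases from the respiratory complex gene NDUFB6. UBXN2B followed at 16 bases, the muskelin gene MKLN1 at 17, the plasma glutathione peroxidase gene GPX3 at 19 and the LIM homeobox gene LHX5 at 20. The next 8 pairs with a named partner all stood at 21 bases, which leaves a gap of exactly 20 bases between the records. Their partners were ATE1, ZNF335, TXNDC17, C14H8orf37, GPAT3, NBEA, C6H4orf54 and PDE4D.

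Divergent and intergenic lncRNA genes had similar exon numbers, and both had fewer exons than coding genes. Counting exons in the transcript with the most, the median was 3 in divergent and 3 in intergenic lncRNA genes, both with quartiles of 2 and 3, against 6 in coding genes (quartiles 3 and 12). A count of 2 or 3 exons covered 39.7% and 40.5% of divergent genes, and 34.2% and 43.8% of intergenic genes. More than 4 exons were found in 4 divergent genes (3.45%) and 51 intergenic genes (3.74%), against 62.7% of coding genes. Single-exon genes were 5.17% of the divergent class, 5.35% of the intergenic class and 12.5% of coding genes. The coding partners of divergent lncRNA had a median of 7 exons, and in 99 of 116 pairs the lncRNA had fewer exons than its partner, while in 13 it had more.

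**Figure D2:**
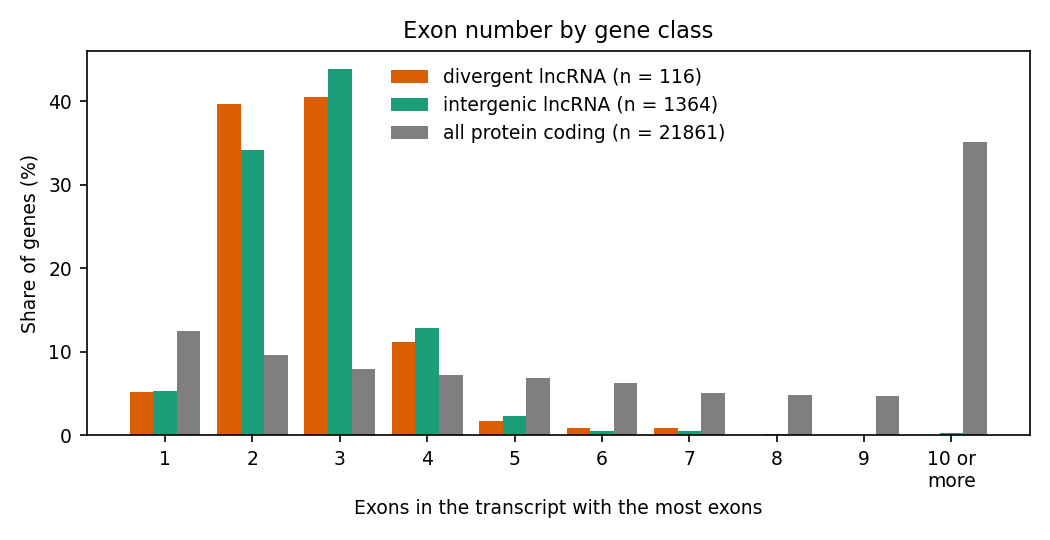
Share of genes (%) with each number of exons, counted in the transcript with the most exons, for divergent lncRNA (116), intergenic lncRNA (1364) and all protein coding genes (21861). Both lncRNA classes peak at 3 exons, and coding genes spread to 10 or more.

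The lncRNA exons were longer than coding exons while the whole genes were shorter. Divergent lncRNA genes had a median span of 8.29 kb (quartiles 3.14 and 22.5 kb) and intergenic ones 6.96 kb (2.79 and 22.4 kb), against 14.0 kb (3.83 and 43.8 kb) for coding genes. The interquartile ranges of the lncRNA classes covered nearly the same lengths. Spliced, the longest transcript had a median of 1168 bases in divergent and 1103 bases in intergenic genes, against 1895 bases in coding genes. The shortest such lncRNA transcript held 201 bases, in the 3-exon ENSBTAG00000053371. The single-exon ENSBTAG00000051649 and the 2-exon ENSBTAG00000053305 each held 1008 bases. Whether the annotation set a greater minimum length for records of 1 or 2 exons was not tested. Nor was the part of such a limit in the exon lengths below and in the share of single-exon genes. Averaged over a transcript, an exon had a median of 567 bases in divergent lncRNA, 495 in intergenic lncRNA and 263 in coding genes. The median first intron was 2664 bases in divergent, 2564 in intergenic and 2642 in coding genes.

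The coding partners of divergent lncRNA genes were longer than coding genes at large. Their median span was 26.2 kb (quartiles 9.85 and 70.9 kb), against 14.0 kb for all coding genes and 13.9 kb for the 1194 coding genes that were divergent to another coding gene. Their median first intron was 6262 bases. The lncRNA spanned more than its partner in 31 of 116 pairs. More than 1 annotated start position was given to 40 partners (34.5%), against 28.9% of all coding genes. A symbol was carried by 114 partners (98.3%), against 80.5% of coding genes. An annotated 5' untranslated region (UTR) was present in 96 partners (82.8%), against 66.4% of coding genes. The part of annotation depth in these differences was not tested.

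**Figure D3:**
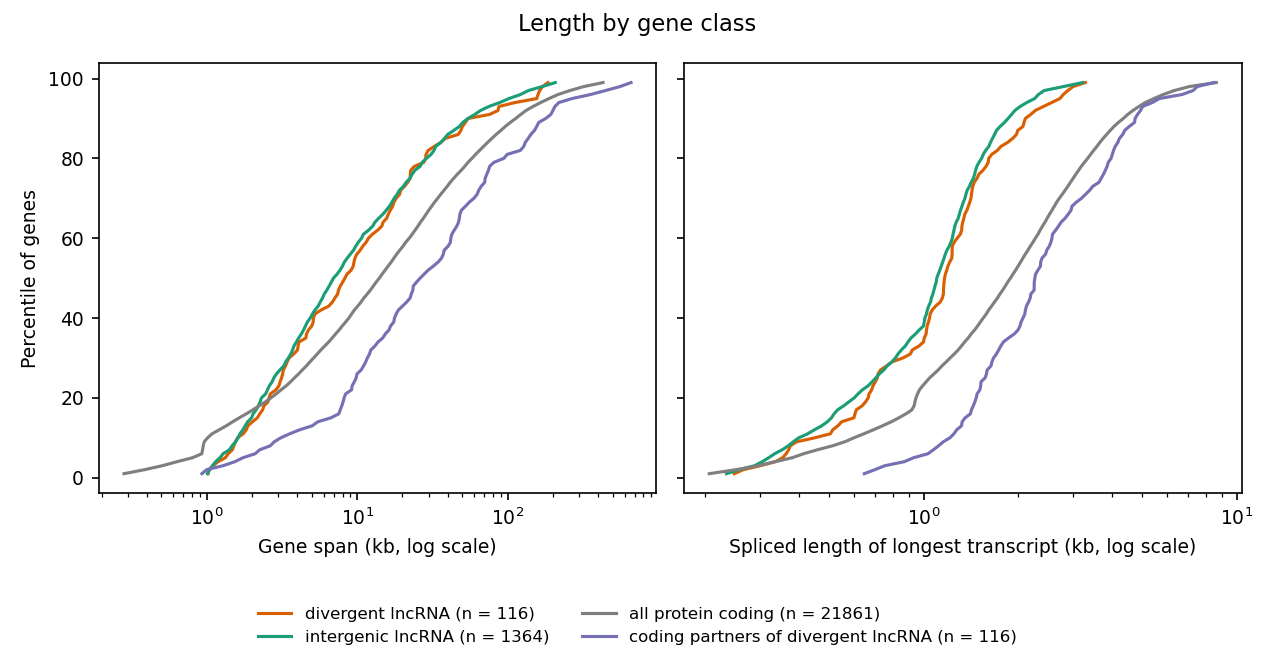
Percentiles of gene span (left) and of the spliced length of the longest transcript (right), both in kb on log axes, for divergent lncRNA, intergenic lncRNA, all protein coding genes and the coding partners of divergent lncRNA. The lncRNA curves run close together and left of the coding curve over most of the range; the partners lie to its right, with a median span of 26.2 kb.

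With all gaps pooled, head-to-head placement was the most frequent arrangement of a lncRNA gene and its nearest coding gene. From 5 to 20 kb a coding gene downstream on the same strand was more frequent, at 31.0% against 24.7%. With a gap under 1 kb, 116 lncRNA genes (7.84% of 1480) had a head-to-head coding neighbour and 29 (1.96%) had a tail-to-tail one. Among coding genes, 1194 (5.46% of 21861) and 1094 (5.004%) had such a coding neighbour. On the same strand, 56 lncRNA genes (3.78%) ended within 1 kb before the start of a coding gene. There were 25 lncRNA genes (1.69%) that began within 1 kb after the end of a coding gene. For coding genes these counts were 442 (2.02%) and 445 (2.04%). Taking only the nearest coding gene, 52.1% of the 215 lncRNA genes with a gap under 1 kb were head-to-head and 13.0% tail-to-tail, a ratio of 4.0. For coding genes the same shares were 38.2% and 35.4%.

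The head-to-head share of lncRNA genes was lower past 1 kb but stayed above the tail-to-tail share in every range. From 1 to 5 kb it was 28.2% against 19.5%, from 5 to 20 kb 24.7% against 19.0%, from 20 to 100 kb 27.9% against 19.0%, and over 100 kb 33.3% against 20.5%. In coding genes the order was the other way between 1 and 100 kb, with 13.7% head-to-head and 35.7% tail-to-tail from 1 to 5 kb. In all, the nearest coding gene was head-to-head for 466 lncRNA genes (31.8%), tail-to-tail for 271, downstream on the same strand for 379 and upstream on the same strand for 349. The other 15 lncRNA genes lay on unplaced scaffolds that hold no coding gene.

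**Figure D4:**
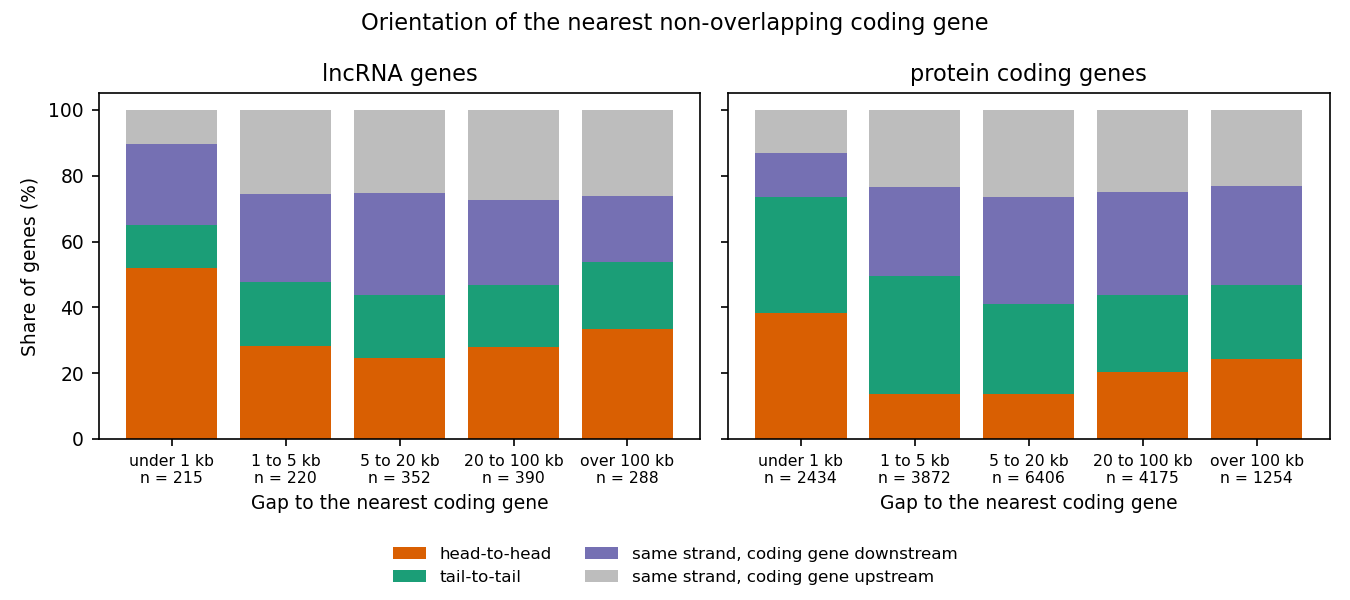
Share (%) of lncRNA genes (left) and of non-overlapping protein coding genes (right) by the orientation of their nearest coding gene, for 5 ranges of the gap. Head-to-head placement makes up 52.1% of lncRNA genes under 1 kb and 38.2% of coding genes; past 1 kb the lncRNA share is between 24.7% and 33.3%.

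A gap of exactly 20 bases recurred between lncRNA and coding records. It was found in 36 of 226 lncRNA-coding pairs with a gap under 1 kb (15.9%), while no other gap length occurred in more than 2 pairs. It held 16 of 56 pairs in which the lncRNA ended just before a coding gene on the same strand, 10 of 25 in which it began just after one, 8 of 116 head-to-head and 2 of 29 tail-to-tail pairs. Of 1597 pairs of coding genes, 34 (2.13%) had this gap, and the next most frequent length held 9. Among the 16 pairs in which the lncRNA ended 20 bases before the coding start, 1 coding gene (6.25%) had an annotated 5' UTR. With other gaps under 1 kb in that arrangement 25 of 40 did (62.5%), and 66.4% of all coding genes did. The 16 included NRIP1, BRD2 and FLRT2, whose coding record was a single exon of 1.98 kb preceded by the 101 kb ENSBTAG00000048887. Of the 8 head-to-head pairs with this gap, 3 coding genes had a 5' UTR, against 93 of 108 (86.1%) with other gaps. After a coding end on the same strand, 3 of 10 genes had a 3' UTR, against 7 of 15. How these ends were set was not tested.

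**Figure D5:**
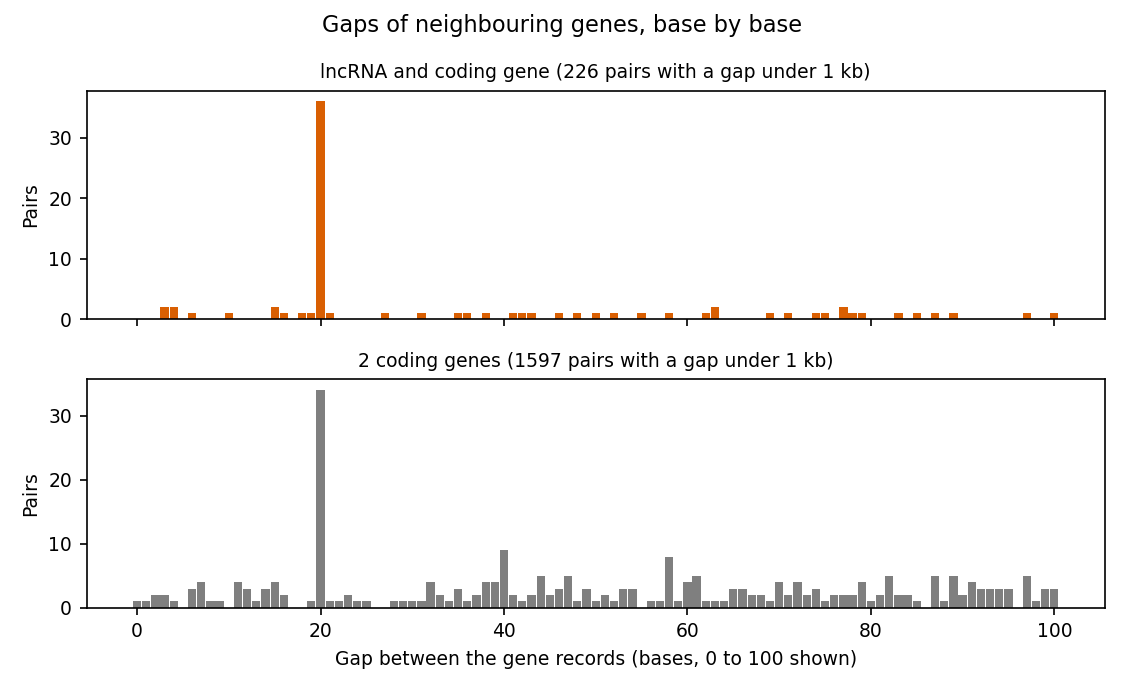
Number of neighbouring gene pairs at each gap between their records, in bases from 0 to 100, for lncRNA and coding genes (top) and for 2 coding genes (bottom). Both panels have their highest bar at 20 bases, with 36 and 34 pairs.

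Intergenic lncRNA genes lay at all distances from coding genes. The median gap to the nearest coding gene was 20.2 kb (quartiles 5.52 and 81.2 kb), against 9.39 kb (2.81 and 24.9 kb) for coding genes that overlap no other. Those coding genes include close head-to-head pairs, which the intergenic class leaves out. With divergent genes included, the median over lncRNA genes was 16.7 kb (3.57 and 70.5 kb). Some intergenic lncRNA genes nearly touch a coding gene. ENSBTAG00000054381 ended 3 bases from the end of C21H14orf180, and ENSBTAG00000047024 ended 4 bases before an unnamed coding gene on chromosome 9. The 6-exon ENSBTAG00000049105 ended 6 bases before GATA6, a transcription factor gene of heart and gut, on the same strand (chromosome 24, 34192631 to 34196009). It is classed as intergenic because it does not run in the opposite direction. At the other extreme, ENSBTAG00000053349 on chromosome 8 lay 1483 kb from the nearest coding gene. ENSBTAG00000055089 lay 1311 kb from AUTS2, a neurodevelopmental gene, and ENSBTAG00000049199 lay 1110 kb from BCL11B, a T cell and skin transcription factor gene.

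The largest lncRNA records were long because of their introns. ENSBTAG00000051499 on chromosome 3 spanned 616 kb (55352504 to 55968394), and its longest spliced transcript held 579 bases. In the divergent class, ENSBTAG00000054682 spanned 244 kb next to the neuromedin receptor gene NMUR2 and gave a transcript of 406 bases. The most exons, 16, were those of the intergenic ENSBTAG00000048959 on chromosome 3. In the divergent class the most were the 7 exons of ENSBTAG00000054053 next to SLC3A2. Most lncRNA genes had a single transcript (991 of 1480, 67.0%, against 62.3% of coding genes). The largest number was 6, in 5 intergenic genes, among them ENSBTAG00000048909 near ZAP70, a T cell kinase gene, and ENSBTAG00000055157 near SLC39A11, a zinc transporter gene.

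Lists of coding genes were drawn from general knowledge, with earlier results of these data known, and searched for lncRNA neighbours. Of all coding genes, 10.0% had any lncRNA gene within 50 kb and 2.97% a head-to-head one. Over the 17450 coding genes with a unique symbol, 0.648% had a divergent lncRNA within 1 kb, 10.4% had any lncRNA gene within 50 kb, and 3.16% had a head-to-head lncRNA gene within 50 kb. Of 49 genes found that are known for a neighbouring lncRNA in human or mouse, 1 (FOXD3) had a divergent lncRNA, 16 (32.7%) had any within 50 kb and 9 (18.4%) a head-to-head one. Of 128 developmental transcription factor genes, 2 (GATA2 and IRX2) had a divergent lncRNA, 26 (20.3%) had any within 50 kb and 17 (13.3%) a head-to-head one. Neighbouring HOX genes can share a lncRNA, and the 17 genes drew on 13 lncRNA genes. Without HOX genes 11 of 94 (11.7%) had a head-to-head one. The 44 fibroblast and matrix genes gave 1 divergent pair (CCN1), 6 genes (13.6%) with any lncRNA and 3 (6.82%) with a head-to-head one. The 21 AP-1 and early response genes and the 29 inflammatory mediators each gave 5 genes with any lncRNA within 50 kb (23.8% and 17.2%), and none of either list had a head-to-head one. These lists were read beside the shares for all genes only, with no set test.

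Most listed genes with a lncRNA gene within 50 kb had it beyond 1 kb. IRX1, the Iroquois gene neighbouring IRX2, had the head-to-head ENSBTAG00000051384 with a gap of 1.38 kb, and LMX1B, a limb patterning gene, had ENSBTAG00000051436 at 2.09 kb. POU3F3, a neural POU factor gene, had a head-to-head lncRNA at 3.81 kb (ENSBTAG00000050631), and LHX1, a LIM homeobox gene, at 8.56 kb (ENSBTAG00000050755). GLI3, a Hedgehog pathway factor gene, had ENSBTAG00000052436 at 18.1 kb. Downstream on the same strand, TBX2 had ENSBTAG00000048639 at 2.13 kb and the forebrain gene EMX2 had the 91.1 kb ENSBTAG00000053353 at 1.70 kb. These are the nearest records only: TBX2, EMX2 and GATA6 each also had a head-to-head lncRNA gene within 50 kb. Among dermal matrix genes, COL1A1, the main fibrillar collagen gene of skin, had ENSBTAG00000050314 at 3.68 kb downstream, TNC (tenascin C) had ENSBTAG00000051432 at 20.2 kb downstream, and THY1 and COL14A1 had head-to-head lncRNA genes at 10.7 and 15.6 kb. For the inflammatory genes the nearest were ENSBTAG00000052772, 9.05 kb upstream of the neutrophil chemokine gene CXCL8, and ENSBTAG00000052763, tail-to-tail with STAT3 at 27.1 kb.

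The 6 lncRNA records with a symbol all carried the symbol of a gene that codes for a protein in human. They were COL9A2 (a cartilage collagen chain), CRHR1 (a stress hormone receptor), CEBPG (a transcription factor), ENHO (the peptide adropin), EEF1AKMT1 (a lysine methyltransferase) and CDC42SE1 (a CDC42 effector). None of these symbols was held by a coding record as well. The record named COL9A2 (ENSBTAG00000020622, chromosome 3, 105807211 to 105810027) spanned 2.82 kb in 5 exons, and that named CRHR1 (ENSBTAG00000002749, chromosome 19, 45791345 to 45843559) had 13 exons over 52.2 kb. CDC42SE1 was the divergent member, 345 bases from the start of MLLT11. A list of coding genes taken from this annotation by type leaves these 6 out.

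By default, Signac's gene activity adds up fragments over a gene and 2 kb upstream of it; whether the study used it is unknown here. In such windows of coding genes, 221 lncRNA genes (14.9%) had at least 1 base. For 155 of them the lncRNA's own start lay in the window, in 146 cases from the opposite strand, and 20 lay wholly inside it. All 116 divergent genes were among the 221 by construction of the limit. ATAC fragments carry no strand, so a fragment in the stretch between the starts has no side in such a sum.

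By chromosome, there were 6.77 lncRNA genes per 100 coding genes overall. The ratio ran from 3.35 on chromosome 15 to 12.6 on chromosome 21, with chromosome 20 next at 12.3 and the X chromosome at 5.80. Divergent genes were most numerous on chromosome 3 (11 of 73 lncRNA genes), chromosome 17 (9 of 54) and chromosome 19 (8 of 57). Chromosome 23 had none among its 42 lncRNA genes. The share over all chromosomes was 116 of 1480 (7.84%). The plus strand held 798 lncRNA genes (53.9%) and 69 of the 116 divergent ones (59.5%), against 50.9% of coding genes.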

How the data were processed

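The study's 8 single-cell ATAC-seq libraries enter no value. Per the submitters' processing notes, Cell Ranger ATAC and Cell Ranger were used with the build ARS-UCD1.2, and per the series text Signac 1.2.1 was used for the peak matrices; the sources used here give no other versions and do not say how the annotation was filtered. The deposited file used is the gene annotation, per the file header of ARS-UCD1.2, with Ensembl identifiers; its values are first and last bases, counted from 1. A symbol is the name in a record that is not its own identifier.

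Records were classed in the order divergent, antisense, sense, intergenic (Python 3.11.15, pandas 2.3.3, numpy 2.4.6). The classing was tested on simulated data, and all 1200 records made there were returned to their class. Gap is the number of bases between 2 records. Genome sequence was not used here, so no promoter sequence is printed.

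A written rule named records with a symbol, extremes of span, exons and transcripts in each class, and the 10 shortest start distances with ties. It also named pairs at the 1 kb limit, partners on the lists and the 3 nearest and 3 farthest intergenic genes. The lncRNA genes with most small RNA genes were named by it too. Outside this rule, further divergent pairs and the regions known for noncoding RNA were chosen after values were seen. The members and lists were chosen with earlier results of these data known. Alternatives changed the distance limit, the overlap rule, the start, the neighbours, the sequences and the exon and length measures.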

Additional observations from a re-analysis of the deposited data

How the results depend on the processing

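Taken from the longest spliced transcript, the median exon number of both lncRNA classes was 2. Divergent lncRNA genes numbered 93 with starts within 500 bases, 146 within 2 kb and 194 within 5 kb. Because no lncRNA record shares a base with a coding record, the other distances, starts, class orders, overlap rules and sets of sequences could not move either overlapping class from 0, and say nothing of its stability. With alternatives chosen after seeing the data, 6 lncRNA genes were sense overlapping once pseudogenes and receptor segments counted as neighbours; with 2 kb upstream added to coding records, 30 intergenic genes became antisense and 75 sense overlapping. By construction, spliced length gave smaller medians than span: 1.168 kb for divergent, 1.103 kb for intergenic and 1.895 kb for coding genes. The head-to-head to tail-to-tail ratio under 1 kb was 4.0 with and without gaps of exactly 20 bases, an alternative also chosen after seeing the data. No paired analysis was possible because the file holds no values of samples. The classes rest on annotated gene ends: a start that is annotated short moves a pair across the 1 kb limit, and nothing here shows whether any lncRNA is transcribed in reindeer skin.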

Other observations

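Some lncRNA genes are hosts of small RNA genes. On the same strand, 14 lncRNA genes contained 52 of the 770 snoRNA genes and 19 contained 22 of the 951 microRNA genes. Of these same-strand pairs, 40 with a snoRNA and 17 with a microRNA gene were intronic, while 12 and 5 touched an exon. The divergent gene ENSBTAG00000054053, whose start lies 47 bases from that of SLC3A2 (a heavy chain gene of amino acid transporters; chromosome 29, 41155211 to 41158366), held the most, 9 snoRNA genes, among them SNORD22 and SNORD25 to SNORD31. In human these snoRNAs lie in SNHG1. The cattle record has no symbol, and 5 of its 9 snoRNA genes were intronic. The 6-exon ENSBTAG00000050891 held 6, including SNORD79 and SNORD81, which in human lie in GAS5, and faced ZBTB37 head-to-head with a gap of 2.04 kb. ENSBTAG00000051151 held 5 small RNA genes, 78 bases from the start of ZNFX1.

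A few regions known for noncoding RNA were looked up after values were seen. The interval from the imprinted gene DLK1 to the imprinted gene DIO3 on chromosome 21 (65626343 to 66495438) held 7 lncRNA genes and, with DLK1 and DIO3 themselves counted, 3 coding genes. The 3 on the plus strand, ENSBTAG00000048448, ENSBTAG00000048659 and ENSBTAG00000050196, held 5, 4 and 3 snoRNA genes. ENSBTAG00000050493 was divergent to DIO3, the gene of a deiodinase that inactivates thyroid hormone, at 619 bases, and its 3.49 kb outran the 0.903 kb of DIO3. Between SNRPN and UBE3A on the same chromosome, all 7 lncRNA genes lay on the plus strand, the strand of SNRPN, and 3 of them held copies of SNORD116. The IGF2 to MRPL23 interval held 2 lncRNA genes. The HOXA and HOXB clusters held 0, HOXC 2 and HOXD 1. In HOXC, ENSBTAG00000052715 (chromosome 5, 26066531 to 26068539, 3 exons, plus strand) lay between HOXC11 and HOXC12, on the strand opposite to the HOXC genes, where HOTAIR lies in human. Whether it is the counterpart of HOTAIR was not tested. The intervals FOXF1 to FOXC2, KCNQ1 to CDKN1C, MORC2 to SMTN and DLX6 to DLX5 held 0. No lncRNA record here shares a base with a coding record. The counts of 0, those of HOXA and HOXB included, therefore do not cover noncoding RNAs that run across coding genes.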
